A study of Mus musculus with 34 samples.

Results

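The loci of 4 mouse genes of lymphocyte homing and tissue exit, Klf2, S1pr1, Ccr7 and Ccr9, were examined for binding of the transcription factors BATF, IRF4 and Foxp3 in CD4+ T cells. A peak was taken as belonging to a locus when the nearest protein-coding gene body of mouse build mm10 was 1 of these genes and lay at most 100000 bp away, with 0 bp for a peak inside the gene. Of the 41612 peaks in the 4 deposited peak tables, 58 met this rule. They were 26 of 16109 BATF peaks in the first BATF table, 10 of 9973 in the second, 15 of 9134 IRF4 peaks and 7 of 6396 Foxp3 peaks. S1pr1 had 9, 3, 8 and 2 peaks in these tables, Ccr7 had 9, 1, 3 and 2, Klf2 had 6, 5, 3 and 1, and Ccr9 had 2, 1, 1 and 2. The rule itself uses no measured value, but the genes were chosen with earlier results of these data known.

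Binding was measured by chromatin immunoprecipitation and sequencing (ChIP-seq) in cells sorted fresh from spleen and lymph nodes of C57BL6/J mice, whose age is not given. All mice carried human CD2 (hCD2) behind Foxp3 as a surface reporter (Foxp3-IRES-hCD2). Regulatory T (Treg) cells were sorted as CD4+hCD2+ and conventional T (Tconv) cells as CD4+hCD2-, with 2 BATF libraries each and 4 IRF4 libraries each. Foxp3 was measured with 2 libraries a group in wild-type Treg cells, in Treg cells of Foxp3-IRES-hCD2.Batf-/- mice, in effector Treg cells (eTreg, CCR7lo CD62Llo) and in central Treg cells (cTreg, CCR7hi CD62Lhi CD44lo). BATF was also measured in CD4+hCD2+GFP- Treg cells of Foxp3R397W-IRES-hCD2/Foxp3-IRES-GFP mice and of Foxp3WT-IRES-hCD2/Foxp3-IRES-GFP controls, again with 2 libraries each, so that both of these groups carried a second, GFP-marked Foxp3 allele that the sorted cells did not show. The labels name no restriction of the Batf deletion to a cell type, so cells other than Treg cells may lack BATF too. They do not say whether libraries came from separate animals, and the p-values therefore measure only the spread between these libraries, which may be technical. In a sorted population, fewer cells with the factor bound and less binding per cell cannot be told apart.

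Naive and central T cells recirculate through lymph nodes. CCR7, the receptor for the chemokines CCL19 and CCL21, brings them in, and S1PR1, a receptor for sphingosine 1-phosphate, lets them leave along the rise of this lipid towards lymph and blood. KLF2 is a zinc finger factor of quiescent T cells that activates S1pr1. CCR9, the receptor for CCL25, directs lymphocytes to the small intestine. BATF is an AP-1 family factor that binds DNA with JUN proteins and together with IRF4, and Foxp3 is the forkhead factor that defines Treg cells.

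The libraries held 1377509 to 2280493 reads in peaks in the first BATF table and 144319 to 1009580 in the second, and 164740 to 393310 for Foxp3 and 162580 to 336969 for IRF4. Values are the authors' normalised peak scores, which are reads in the peak times 1 factor per library, and total depth is unknown. The sorts were checked on peaks assigned to 6 Treg marker genes: BATF was higher in Treg cells at 27 of 31 of them, with summed values of 4296 to 4602 in Treg and 1099 to 1101 in Tconv libraries. IRF4 at 17 such peaks summed to 1381 to 1436 in Treg and 485 to 743 in Tconv libraries. Markers of other cells were taken as lists of 6 B cell, 6 myeloid and 7 CD8 and NK cell genes. For BATF the 3 B cell peaks summed to 178 to 201 in Treg and 107 to 146 in Tconv libraries (1 higher, at Pax5), the 5 myeloid peaks to 616 to 623 against 383 to 412 (2 higher, 1 of them at Cebpa) and the 13 CD8 and NK cell peaks to 604 to 652 against 725 to 739 (1 higher, 3 lower). For IRF4 the sums of 3 B cell peaks (44.3 to 82.5 against 39.7 to 64.0, 1 higher), 4 myeloid peaks (83.3 to 124 against 44.2 to 89.7) and 2 CD8 and NK cell peaks (58.7 to 71.6 against 44.2 to 76.6) overlapped. Over all BATF peaks 14.9% were called higher and 4.79% lower in Treg cells, and over all IRF4 peaks 15.8% and 8.39%. Cd79b, Ebf1, Ms4a1, Csf1r, Lyz2, Cd8a and Ncr1 had no peak in any table, and no B cell or myeloid marker had a Foxp3 peak. These peaks show binding, not expression, and the part of other cells in the results was not tested.

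The promoter of Klf2 was the place where BATF stood highest among the 26 peaks of the first table in Treg cells, and where IRF4 had its largest difference between Treg and Tconv cells among 15 peaks. Its sequence is therefore shown, from 250 bases before to 50 bases after the RefSeq start of the gene (GRCm38.p6, the assembly of mm10), chr8:72318812-72319111 on the plus strand. The capitals mark the 157 bases that lie in both the BATF peak (chr8:72318629-72319029) and the IRF4 peak (chr8:72318873-72319273).
Klf2 promoter: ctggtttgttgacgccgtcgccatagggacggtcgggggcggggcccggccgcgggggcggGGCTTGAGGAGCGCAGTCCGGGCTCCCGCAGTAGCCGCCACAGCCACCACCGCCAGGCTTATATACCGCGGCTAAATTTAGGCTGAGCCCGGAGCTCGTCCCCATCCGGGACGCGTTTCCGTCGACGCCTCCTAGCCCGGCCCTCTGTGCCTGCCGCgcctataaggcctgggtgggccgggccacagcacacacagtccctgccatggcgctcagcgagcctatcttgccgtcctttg
The BATF peak covers 218 bases of this window and the IRF4 peak 239. Searched on both strands, the window holds 2 matches to the GC box GGGCGGG, starting 214 and 195 bases before the start site, and 1 to a MEF2-like motif (CTA and TAG with 4 bases between), 118 bases before it and inside the shared stretch. It holds no match to the AP-1 motif TGANTCA, the CRE-like TGANNTCA, a tandem IRF motif (GAAA and GAAA with 2 bases between) or the forkhead motif GTAAACA. The parts of the 2 peaks outside the window were not searched, nor were other forms of these motifs. Of 32851 promoter windows of this length, 25.6% held the GC box, 3.69% the MEF2-like motif, 7.81% the AP-1 motif, 14.1% the CRE-like motif, 3.44% the tandem IRF motif and 3.65% the forkhead motif. Ccr9 (plus strand) also had a window in the RefSeq table, and no peak of any table fell on it.

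In the GRCm38.p6 annotation Klf2 lies at chr8:72319062-72321654, S1pr1 at chr3:115710433-115715055, Ccr7 at chr11:99144199-99155077 and Ccr9 at chr9:123767211-123783457. Overlapping peaks of the 4 tables were merged into 28 sites, 11 at S1pr1, 9 at Ccr7, 6 at Klf2 and 2 at Ccr9. Each gene had 1 site with peaks of all 3 factors, 12 sites had 2 factors and 12 had 1. The 3-factor sites lay at chr8:72303554-72303999, 15063 bp before Klf2, at chr3:115793317-115793742, 78262 bp above the higher-coordinate end of S1pr1, at chr11:99130728-99131241, 12958 bp below Ccr7, and at chr9:123754437-123754860, 12351 bp before Ccr9. All 7 Foxp3 peaks of these genes overlapped a BATF peak by at least 1 bp, against 48.2% of all Foxp3 peaks, and 4 of 7 (57.1%) overlapped an IRF4 peak, against 39.7%. In the other direction, 7 of 26 BATF peaks (26.9%) overlapped a Foxp3 peak, against 19.2% of all BATF peaks, and 4 of 15 IRF4 peaks (26.7%) did, against 27.9% of all IRF4 peaks. Of the 15 IRF4 peaks 13 (86.7%) lay on a BATF peak, against 76.0% of all, and these were 13 of 26 BATF peaks (50%), against 43.0%. Most sites were outside the genes: 4 of 26 BATF peaks, 2 of 15 IRF4 peaks and none of the 7 Foxp3 peaks touched a gene body, and 18, 9 and 5 lay within 20000 bp.

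**Figure D1:**
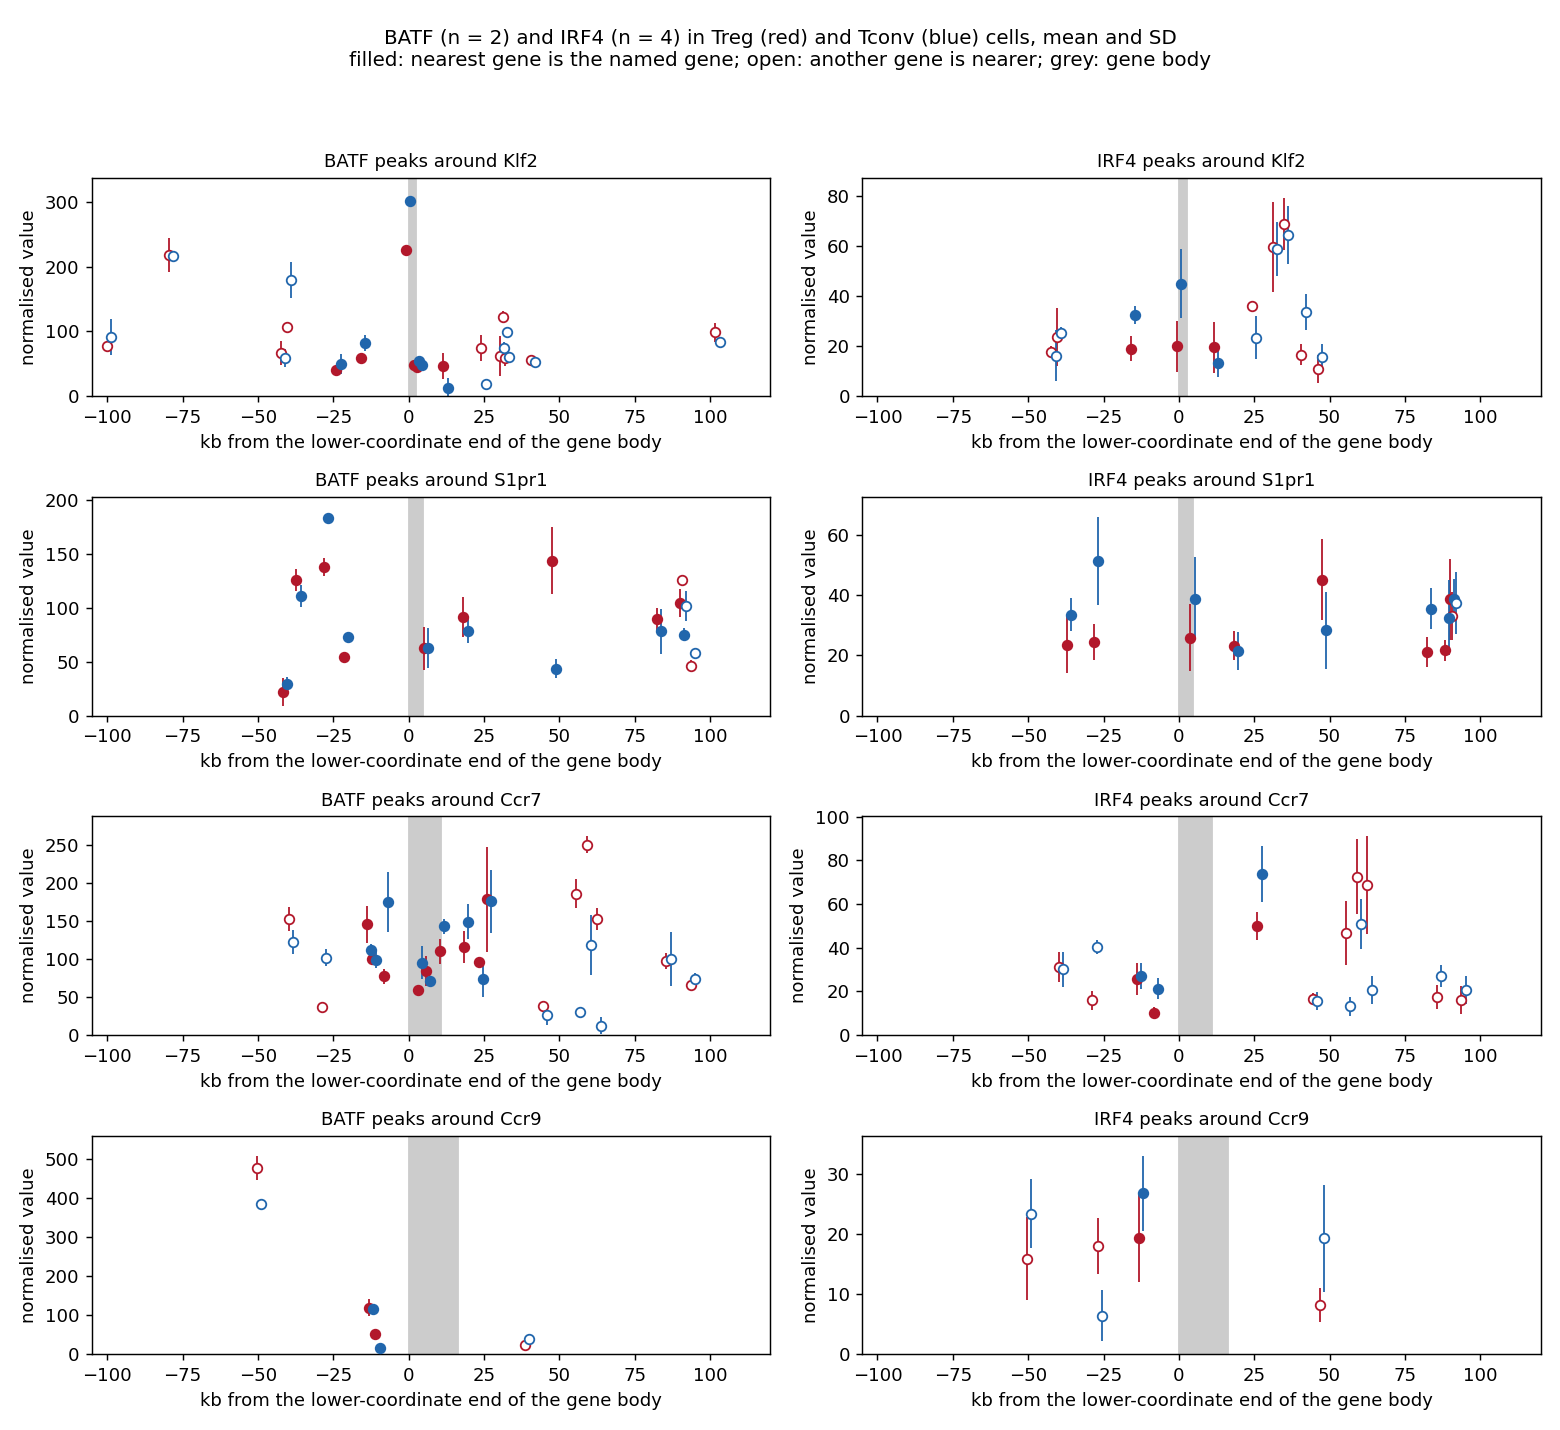
Normalised BATF (left, n = 2) and IRF4 (right, n = 4) values at peaks around the 4 genes, as mean and SD in Treg (red) and Tconv (blue) cells, drawn side by side for each peak against the distance in kb from the lower-coordinate end of the gene body (grey). Filled points are peaks nearest to the named gene, such as the Klf2 promoter at 226 against 301 for BATF, and open points are peaks within 100 kb that lie nearer to another gene. The value axes differ between panels.

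The first comparison asks where BATF binding differs between Treg and Tconv cells. At these 4 genes it differed at 4 of 26 peaks and in both directions, where 19.7% of all BATF peaks differed. BATF was higher in Treg cells at 1 peak each of S1pr1, Klf2 and Ccr9 and lower at 1 peak of Ccr7, while the strongest peak of each gene did not pass the test. A call needs an adjusted p under 0.05 in limma, Benjamini-Hochberg adjusted over all peaks of the table. Of 26 peaks 3 were higher and 1 lower, where the whole table had 14.9% higher and 4.79% lower, and the median log2 difference was -0.01 against -0.03 over all peaks. Under quantile normalisation the tally at the 4 genes became 1 higher and 2 lower, and that over all peaks 2086 higher and 1291 lower, against 2395 and 772. The groups did not overlap at 7 peaks with Treg cells higher (28.5% of all peaks) and 9 with Treg cells lower (27.9%).

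At Klf2 the log2 difference was above 0 at 1 of 6 peaks, downstream of the gene, and below 0 at 5, the promoter among them. At the promoter peak the Treg libraries stood at 227 and 225 and the Tconv libraries at 297 and 305. Both Treg values lay below both Tconv values, but the log2 difference of -0.41 (SE 0.17) did not pass (limma adjusted p = 0.106). The peak 9424 bp downstream of the gene (chr8:72331078-72331478) held 61.2 and 32.8 in Treg and 23.2 and 1.43 in Tconv libraries, the last from 2 reads. It was higher in Treg cells by 2.58 on the log2 scale (SE 0.80, limma adjusted p = 0.0296), and the groups did not overlap. This call is the least firm of the 4: without Tconv replicate 2 the difference was 0.92 (adjusted p = 0.235), without Tconv replicate 1 it was 4.24, and it was also lost without either Treg library (limma adjusted p = 0.233 and 0.0591), under quantile normalisation (0.0569) and without a trend of the spread (0.143). The 4 other Klf2 peaks had log2 differences of -0.11 to -0.46.

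S1pr1 had the firmest difference. The peak at chr3:115758405-115758805, 43350 bp above the gene, stood at 166 and 122 in Treg and at 49.9 and 37.1 in Tconv libraries. The Treg values were 3.25-fold higher with 1 added to each value (log2 difference 1.70, SE 0.27, limma adjusted p = 2.14e-04), which held in each of 10 alternative analyses. The strongest S1pr1 peak, 27254 bp below the gene (chr3:115682779-115683179), held 144 and 132 in Treg and 184 and 184 in Tconv libraries, a log2 difference of -0.41 (SE 0.19) that did not pass (limma adjusted p = 0.158). The other 7 peaks had log2 differences between -0.53 and 0.47. The last of them, 85799 bp from S1pr1, is the farthest BATF peak that the rule took in. The next, at 86449 bp, is 86212 bp from Dph5 and was counted there.

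At Ccr7 the peak at chr11:99136380-99136780, 7419 bp below the gene, was the 1 that fell. It stood at 84.0 and 70.0 in Treg and at 146 and 202 in Tconv libraries, with no overlap. The log2 difference was -1.16 (SE 0.23, limma adjusted p = 0.00138) and held in each of 10 alternatives. The 3 peaks that touch the gene body stood at 59.5 ± 2.08 against 95.1 ± 21.1 (SD, n = 2, limma adjusted p = 0.112), 84.4 ± 19.6 against 70.4 ± 5.60 (0.617) and 110 ± 16.3 against 143 ± 10.0 (0.255). The strongest Ccr7 peak, 15661 bp above the gene (chr11:99170738-99171138), held 130 and 227 in Treg and 146 and 204 in Tconv libraries. The groups overlapped, and the log2 difference was -0.01 (SE 0.25, limma adjusted p = 0.985). The remaining 4 had log2 differences of -0.37 to 0.40 and adjusted p-values of 0.278 to 0.976.

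Ccr9 had a pair of peaks before the gene with unequal behaviour. The weaker, 10088 bp before the start (chr9:123756723-123757123), held 41.5 and 59.9 in Treg and 19.7 and 12.9 in Tconv libraries. It rose by 1.58 on the log2 scale (SE 0.44, limma adjusted p = 0.0164), a call lost without Treg replicate 2 (0.195), by a small margin without Tconv replicate 2, and under quantile normalisation (0.0659). The stronger, 12355 bp before it, held 136 and 104 against 115 and 115, and the groups overlapped (log2 difference 0.05, SE 0.22, limma adjusted p = 0.922). Without Treg replicate 2 or without Tconv replicate 2, the calls at the 4 genes fell from 4 to 2.

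**Figure D2:**
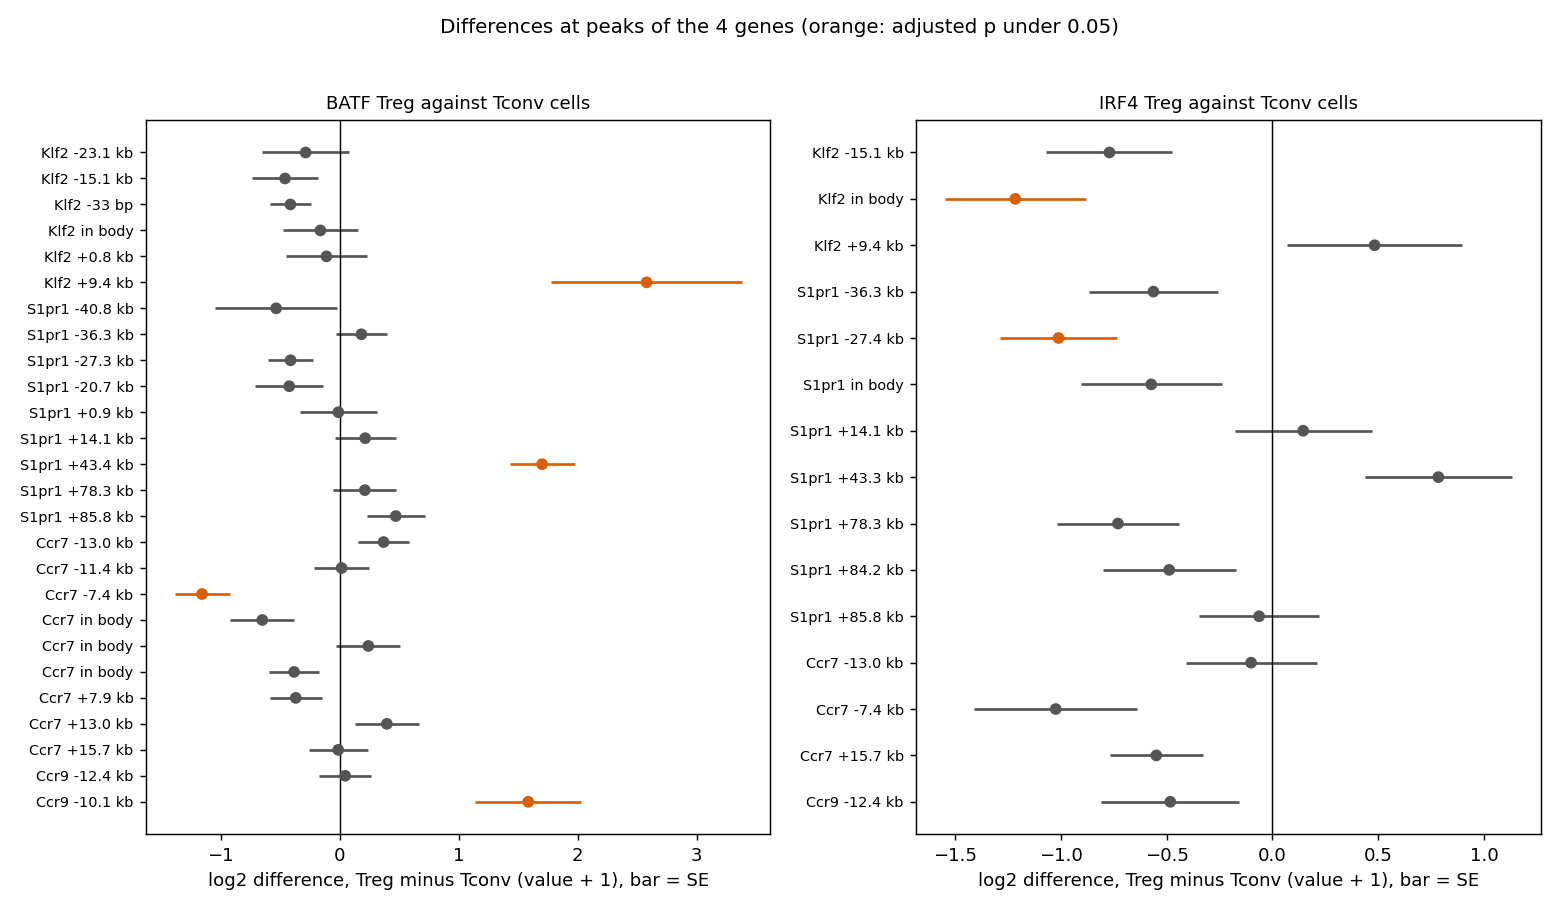
Log2 difference of Treg minus Tconv cells (horizontal axis, value plus 1, bars are SE) at the 26 BATF peaks (left, n = 2 a group) and 15 IRF4 peaks (right, n = 4 a group) of the 4 genes, named by distance and side of the gene body (minus is the lower-coordinate side). Orange points passed the test: 3 above and 1 below 0 for BATF, and 2 below 0 for IRF4.

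IRF4 was compared between the same 2 kinds of cells. It leaned towards Tconv cells at these loci: 12 of 15 peaks had a log2 difference below 0, with a median of -0.55 against -0.05 over all IRF4 peaks. The 2 that fell were the Klf2 promoter and a peak below S1pr1, and none rose. Of all IRF4 peaks 15.8% were higher and 8.39% lower. At 4 of 15 peaks every Treg library was below every Tconv library (8.24% of all peaks), and at none was it the other way (15% of all).

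At the Klf2 promoter the Treg libraries stood at 15.7, 9.52, 21.4 and 33.2 and the Tconv libraries at 60.6, 52.2, 35.2 and 32.0. The highest Treg library reached just above the lowest Tconv library, so the groups overlapped. The log2 difference was -1.22 (SE 0.33, limma adjusted p = 0.00905) and passed in each of 14 alternatives, with adjusted p-values of 0.00417 to 0.0393. The 3-factor site 15108 bp before Klf2 held 18.9 ± 5.02 in Treg cells against 32.3 ± 3.57 (SD, n = 4), with no overlap (limma adjusted p = 0.0608). Downstream, at the peak where BATF was called higher, IRF4 stood at 19.6 ± 10.3 against 13.3 ± 5.50 (limma adjusted p = 0.446).

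The S1pr1 peak 27355 bp below the gene (chr3:115682678-115683078) held 23.0, 33.3, 20.3 and 21.3 in Treg and 53.3, 55.0, 65.9 and 30.9 in Tconv libraries. Treg replicate 2 lay above Tconv replicate 4, and the other libraries were apart. The log2 difference of -1.01 (SE 0.28, limma adjusted p = 0.00934) passed in each of 14 alternatives (adjusted p-values of 0.00330 to 0.0383). BATF at the overlapping peak, described above, was 1.33-fold lower without passing its own test. At the S1pr1 peak 43303 bp above the gene, where BATF rose, IRF4 held 33.2, 61.9, 35.3 and 50.3 against 34.7, 32.7, 9.02 and 36.6, and did not pass (log2 difference 0.78, SE 0.35, limma adjusted p = 0.107). The strongest S1pr1 peak for IRF4, 85810 bp above the gene, stood at 38.7 ± 13.4 against 38.6 ± 6.86 (limma adjusted p = 0.909).

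The 3 Ccr7 peaks lay below 0. The strongest, 15708 bp above the gene (chr11:99170785-99171185), held 42.4, 53.9, 47.0 and 56.3 in Treg and 67.9, 92.6, 65.0 and 69.7 in Tconv libraries, with no overlap. Its log2 difference of -0.55 (SE 0.22) had a limma adjusted p of 0.0697, which ranged from 0.0148 to 0.212 over the alternatives. At the site 7409 bp below Ccr7 where BATF fell, IRF4 stood at 9.94 ± 2.71 against 21.1 ± 4.82 (log2 difference -1.02, SE 0.39, limma adjusted p = 0.0538), also without overlap. The 1 Ccr9 peak held 15.7, 30.1, 17.1 and 14.5 against 18.6, 29.2, 33.4 and 26.3, and did not pass (log2 difference -0.48, SE 0.33, limma adjusted p = 0.311). Without Tconv replicate 1 the calls at the 4 genes went from 2 to 4, all lower.

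Foxp3 was next compared between effector and central Treg cells. These groups were sorted by opposite levels of CCR7, the product of Ccr7, among other markers, so differences at Ccr7 accompany the sort itself. Foxp3 was lower in effector cells at 4 of 7 peaks, at S1pr1 (both peaks), Klf2 and Ccr9, and higher at none. Among all Foxp3 peaks 10.8% were lower and 15% higher. The median log2 difference over the 7 peaks was -0.98 against -0.01 over all, and at 6 of 7 both effector libraries lay below both central libraries (32.6% of all peaks), while at 0 of 7 both lay above (31.6% of all). Foxp3 at 33 peaks of the Treg markers summed to 1410 to 1583 in effector and 1205 to 1274 in central libraries (7 higher, 3 lower). At 4 peaks of the CD8 and NK cell markers it summed to 124 to 142 against 117 to 149, with 1 lower and 1 higher, at the NK receptor gene Klrb1c (57.0 and 68.1 against 26.6 and 20.8, limma adjusted p = 4.16e-04), and their part in the results was not tested.

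Klf2 had a single Foxp3 peak, at the 3-factor site 15083 bp before the gene. It held 12.7 and 12.7 in effector and 25.3 and 28.2 in central libraries, from 10 to 38 reads each. The log2 difference was -1.02 (SE 0.32, limma adjusted p = 0.0188), and it missed the threshold when any 1 of the 4 libraries was left out (adjusted p = 0.0587 to 0.108), with the difference staying between -0.94 and -1.09.

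The S1pr1 peak 78280 bp above the gene (chr3:115793335-115793735) held 21.5 and 19.0 in effector and 46.6 and 47.4 in central libraries. It fell by 1.18 on the log2 scale (SE 0.32, limma adjusted p = 0.00748), and the call was lost without eTreg replicate 2 (0.0665). The S1pr1 peak 20695 bp below the gene held 13.9 and 21.9 against 33.3 and 37.8, a log2 difference of -0.98 (SE 0.31, limma adjusted p = 0.0215). That call was lost without eTreg replicate 1 (0.263), cTreg replicate 1 (0.0701) or cTreg replicate 2 (0.143).

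Of the Ccr9 peaks, the one 10092 bp before the gene held 5.07 and 8.07 in effector libraries, from 4 and 14 reads, and 21.3 and 17.1 in central libraries. It had the largest difference of the 7, -1.44 on the log2 scale (SE 0.40, limma adjusted p = 0.00871), lost without eTreg replicate 1 (0.104) or cTreg replicate 1 (0.0862). The stronger Ccr9 peak held 50.7 and 46.7 against 66.6 and 51.2 (log2 difference -0.26, SE 0.27, limma adjusted p = 0.547). The strongest Ccr7 peak, 13071 bp below the gene, held 49.4 and 53.1 against 79.9 and 85.3, without overlap, and just missed the threshold (log2 difference -0.68, SE 0.26, limma adjusted p = 0.0600, 0.0159 to 0.236 over the alternatives). The other Ccr7 peak was low in both groups, at 13.4 ± 4.31 and 10.5 ± 0.195 (SD, n = 2, limma adjusted p = 0.633). The 4 calls became 1 without eTreg replicate 1 or without cTreg replicate 1, and 2 without either of the other libraries.

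**Figure D3:**
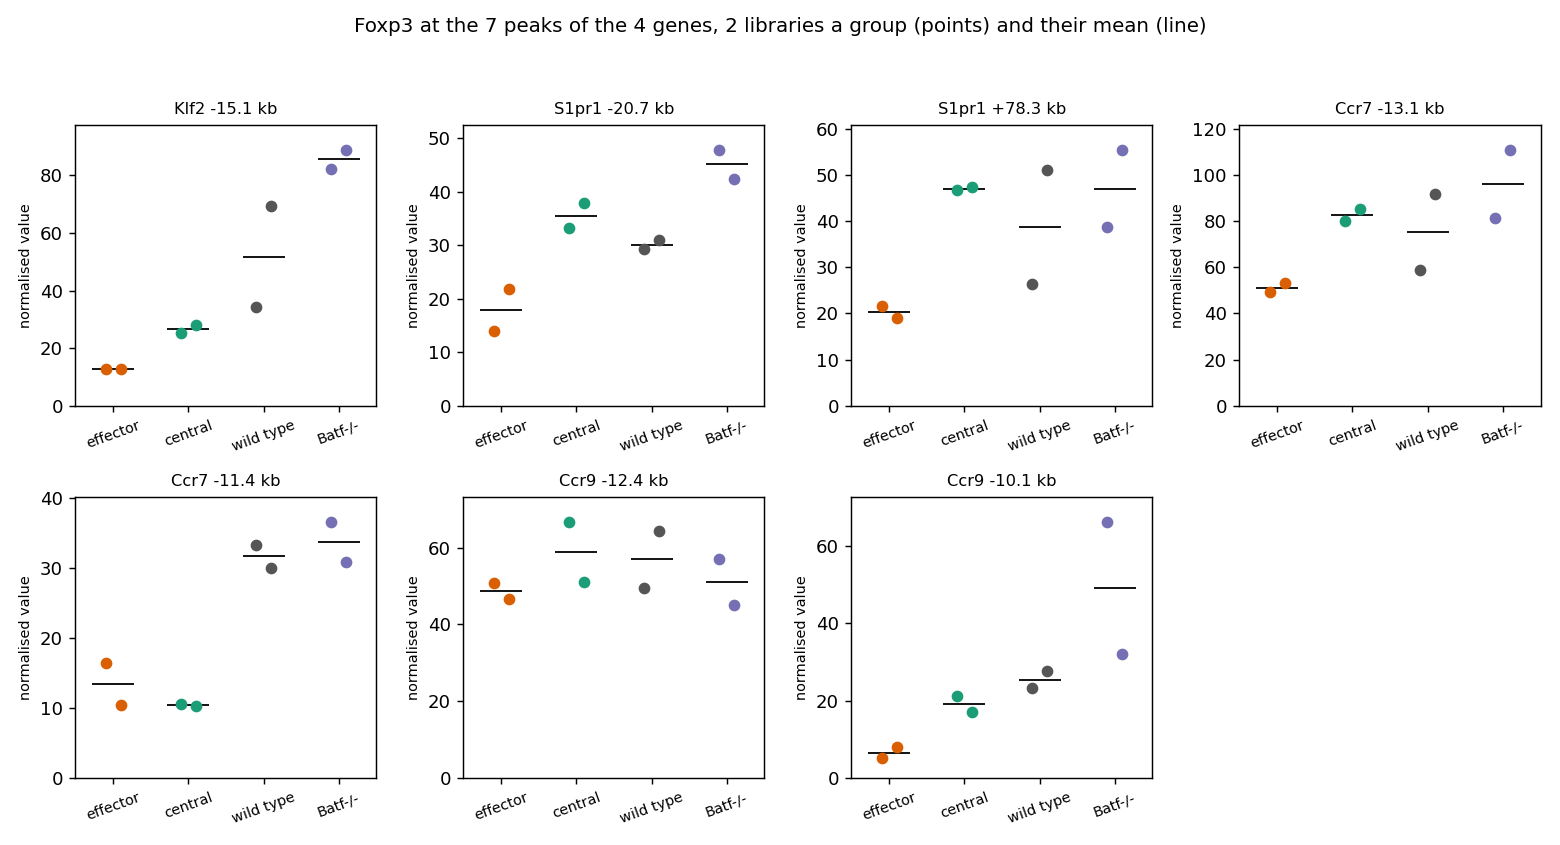
Normalised Foxp3 value of each library (points, 2 a group) and the group mean (line) at the 7 peaks of the 4 genes, named by distance from the gene body, in effector, central, wild-type and Batf-/- Treg cells. The effector points lie below the central points at 6 of the 7 peaks, and the Batf-/- points lie above the wild-type points at 3.

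Foxp3 was also compared between Batf-/- and wild-type Treg cells, to ask where its binding depends on BATF. No peak of the 4 genes passed the test, and most log2 differences were above 0, by amounts that depended on single wild-type libraries. The loss of BATF itself cannot be checked from Foxp3 peaks. Foxp3 at the Treg marker peaks summed to 1449 to 1517 in Batf-/- and 1702 to 1728 in wild-type libraries (3 of 33 lower), and at the CD8 and NK cell marker peaks to 183 to 199 against 159 to 190 (none called). In Batf-/- against wild-type Treg cells limma and edgeR each called 0 of 7 peaks, and 2 had an unadjusted p under 0.05. Over all Foxp3 peaks 4.46% were called, 0.547% higher and 3.91% lower. The log2 difference was above 0 at 6 of 7 peaks, with a median of 0.36 against 0.05 over all, and at 3 of 7 both Batf-/- libraries exceeded both wild-type libraries (22.8% of all peaks), while at 0 of 7 both lay below (20.4% of all). At the Klf2 site 15083 bp before the gene the Batf-/- libraries held 82.3 and 88.8 and the wild-type libraries 34.4 and 69.3 (log2 difference 0.79, SE 0.32, limma adjusted p = 0.180). At the weaker Ccr9 site they held 66.1 and 32.2 against 23.3 and 27.6 (log2 difference 0.84, SE 0.40, limma adjusted p = 0.276). The S1pr1 site 20695 bp below the gene held 47.8 and 42.5 against 29.3 and 30.9 (log2 difference 0.57, SE 0.31, limma adjusted p = 0.378). At Klf2 wild-type replicate 2 lay closer to the Batf-/- libraries than to wild-type replicate 1. Without wild-type replicate 1 the log2 difference was 0.30 at Klf2 and 0.05 at the stronger Ccr7 peak. At the S1pr1 peak 78280 bp above the gene it was then -0.14. Without wild-type replicate 2 the differences at the same peaks were 1.29, 0.68 and 0.79. The S1pr1 peak 78280 bp above the gene stood at 47.0 ± 11.8 against 38.6 ± 17.4 (limma adjusted p = 0.666). The stronger Ccr7 peak stood at 96.0 ± 20.8 against 75.3 ± 23.5 (0.526), the weaker at 33.7 ± 4.03 against 31.7 ± 2.33 (0.944), and the stronger Ccr9 peak at 51.0 ± 8.40 against 56.9 ± 10.4 (0.842; SD, n = 2 throughout).

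Wild-type, effector and central values come from 1 table and are set side by side here without a test. Summed over all Foxp3 peaks, values came to 262452 and 264551 in wild-type and 219415 to 226839 in effector and central libraries. A difference between these sets of libraries and a difference between the cells cannot be told apart. Wild-type Treg cells were not sorted by CCR7, CD62L or CD44. Their libraries stood at 34.4 and 69.3 at the Klf2 site, above the 25.3 and 28.2 of the central libraries. The weaker Ccr7 peak was higher in wild-type libraries too, at 33.4 and 30.1, than in any effector or central library (10.4 to 16.5). At 3 of the other 5 peaks the range of the wild-type libraries overlapped that of the central libraries.

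The R397W comparison asks how BATF binding changes in Treg cells whose Foxp3 carries a substitution in its forkhead domain. None of the 10 BATF peaks at these genes passed the limma test, and 2 had an unadjusted p under 0.05, both at Klf2 and both higher in R397W cells. Over all peaks of that experiment 8.65% were called, 8.04% lower and 0.612% higher. The median log2 difference over the 10 peaks was 0.11 against -0.02 over all. At 3 of them, all at Klf2, both R397W libraries were above both controls (22.7% of all peaks), and at 1, at S1pr1, both were below (28.8% of all). BATF at 8 peaks of the Treg markers summed to 245 to 299 in R397W and 760 to 844 in control libraries (4 lower, none higher). At 3 myeloid marker peaks it summed to 31.9 to 32.5 against 83.0 to 92.5 (1 lower, at Cebpa), at 9 CD8 and NK cell peaks to 186 to 192 against 205 to 228 and at 2 B cell peaks to 60.3 to 87.2 against 66.3 to 79.5 (none called), and their part in the results was not tested.

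At the Klf2 site 15092 bp before the gene (chr8:72303570-72303970) the R397W libraries held 63.3 and 55.4 and the controls 24.7 and 27.7, the last from 8 reads. The log2 difference was 1.15 (SE 0.38) with a limma adjusted p of 0.0717, and edgeR on the recovered reads called it higher (adjusted p = 0.0444). In the same table the Treg libraries of the first experiment held 37.5 and 32.2 and the Tconv libraries 46.5 and 56.7. The R397W values lay above both Treg values, and 1 of them within the range of the Tconv values. The controls lay below both of these Treg libraries here. At the peak 803 bp downstream they lay above them, at 41.6 and 58.8 against 24.4 and 26.9. Where R397W or control libraries are set beside those of the first experiment, differences between experiments and between cells therefore cannot be told apart. The peak at the end of the Klf2 gene held 54.7 and 43.0 against 23.1 and 24.2 (log2 difference 1.00, SE 0.41, limma adjusted p = 0.153), and the peak 23075 bp before the gene 37.6 and 51.3 against 32.4 and 20.8 (0.74, SE 0.43, limma adjusted p = 0.337). The other 2 Klf2 peaks, 803 and 9443 bp downstream, had log2 differences of -0.04 each. The promoter peak of Klf2 is not among the peaks of this table.

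The S1pr1 peak 43328 bp above the gene, where BATF was higher in Treg than in Tconv cells, held 63.3 and 71.4 in R397W and 74.0 and 111 in control libraries. Both R397W values were below both controls, and the difference did not pass (log2 -0.42, SE 0.29, limma adjusted p = 0.430). The Tconv libraries, which are of the first experiment, stood at 30.3 and 18.9 there, below all 6 Treg libraries of the table. The other S1pr1 peaks stood at 44.4 ± 4.94 against 42.3 ± 18.4 and at 70.1 ± 21.7 against 75.6 ± 4.27. Ccr7 stood at 72.7 ± 15.6 against 67.6 ± 2.62 and Ccr9 at 21.3 ± 3.70 against 18.9 ± 2.68 (SD, n = 2, limma adjusted p = 0.900 for both). Control column 2 had the fewest reads of the table, 144319, and its values here rest on 6 to 32 reads.

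**Figure D4:**
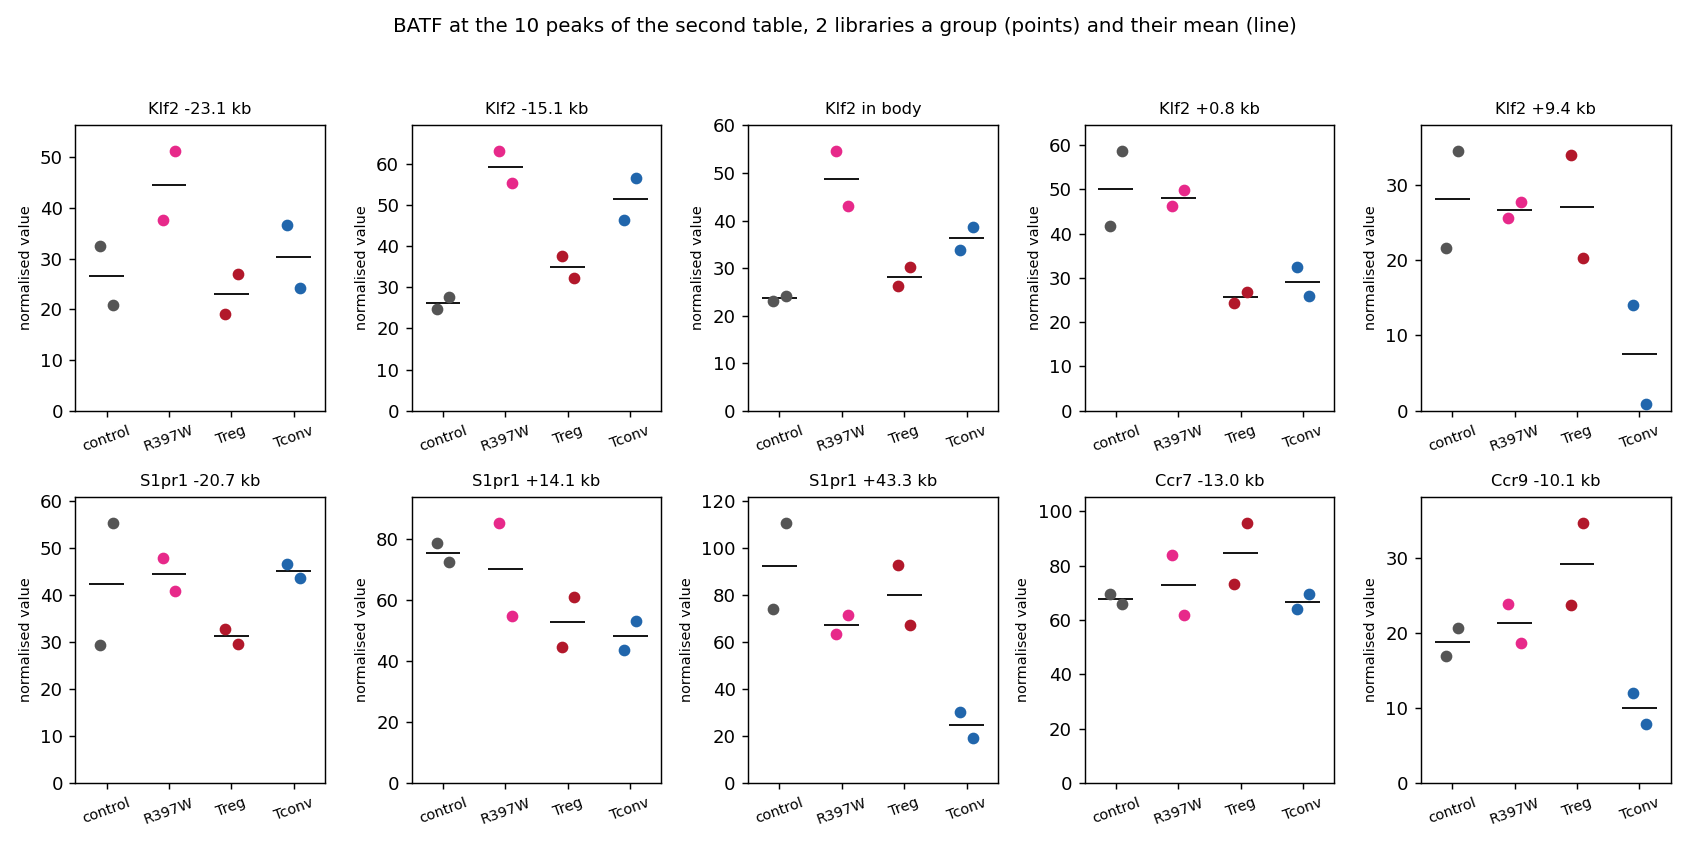
Normalised BATF value of each library (points, 2 a group) and the group mean (line) at the 10 peaks of the second BATF table, named by distance from the gene body, in control, R397W, Treg and Tconv cells. At 3 of the 5 Klf2 peaks both R397W points lie above both control points.

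Other genes of homing, egress and retention were taken as a list of 33, which includes integrin, chemokine receptor and S1P receptor genes. For BATF in Treg against Tconv cells 29 of 100 peaks were higher and 2 lower, with a median log2 difference of 0.24, where the whole table had 14.9% higher and 4.79% lower and a median of -0.03. For IRF4 18 of 63 were higher and 1 lower (median 0.16), against 15.8% and 8.39% of all peaks (median -0.05). Among named genes, Ccr8, a chemokine receptor of tissue Treg cells, had a BATF peak at 151 and 132 in Treg and 17.4 and 15.0 in Tconv libraries (log2 difference 3.05, SE 0.33, limma adjusted p = 6.03e-06). Klf6, a Klf2 relative, had BATF higher at 5 of 7 peaks and IRF4 higher at 6 of 7, where Klf2 had 1 of 6 and 0 of 3. Other Klf genes of the list had fewer: Klf3 had BATF higher at 0 of 4 peaks and IRF4 at 0 of 1. Klf13 had BATF higher at 1 of 11 peaks and lower at 1, and IRF4 higher at 1 of 3. The Klf genes were not compared by a test. The Klf6 BATF peak with the smallest p held 142 and 128 against 16.3 and 17.1 (log2 difference 2.94, SE 0.33, limma adjusted p = 8.19e-06). The guanine exchange factor gene Dock2, which acts in lymphocyte migration, had 91.2 and 151 against 9.29 and 12.1 at its leading BATF peak (log2 difference 3.35, SE 0.40, limma adjusted p = 1.47e-05).

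For Foxp3 in effector against central cells, Gpr15, a receptor for homing to the large intestine, was higher in effector cells, at 58.3 and 65.7 against 6.66 and 12.6 (log2 difference 2.62, SE 0.44, limma adjusted p = 9.35e-05), and so was a Dock2 peak at 30.4 and 36.3 against 5.33 and 5.93 (2.37, SE 0.38, limma adjusted p = 5.71e-05). In Batf-/- against wild-type cells 1 of 72 peaks of the list was higher and 5 lower, against 0.547% and 3.91% of all peaks. The same Gpr15 peak held 2.03 and 2.57 against 22.2 and 37.6 (log2 difference -3.19, SE 0.44, limma adjusted p = 3.74e-05). With R397W 0 of 44 BATF peaks of the list were higher and 7 lower, against 0.612% and 8.04% of all peaks. The smallest p was that of a peak of Klf6 at 35.9 and 56.1 against 133 and 131 (log2 difference -1.53, SE 0.30, limma adjusted p = 0.00651).

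Over the 8 Foxp3 libraries, the strongest Foxp3 peak of each of the 4 genes was set against those of 2553 genes with a mean value of at least 20, with Pearson's r of the log2 values as the measure of likeness. The libraries share groups and depth, so r is a description only. The S1pr1 peak was most like those of Gm46240 (r = 0.99), Gm11541 (0.97) and Ccr7 (0.97). The Ccr7 peak was most like those of Gm11541 (0.97), S1pr1 (0.97) and Zranb2 (0.96). Klf2 was most like Ranbp9 (0.99), Kif1b (0.98) and Aebp2 (0.98). Their group means, like those of Klf2, were ordered effector, central, wild-type and Batf-/- from low to high. The choice by r over the same libraries largely builds in this shared order. Ccr9 was most like Cisd2 (0.92), Chrm5 (0.85) and Cplane1 (0.84), and its order of group means was central, wild-type, Batf-/- and effector, from 58.9 to 48.7, within the spread of the libraries.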

How the data were processed

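ChIP-seq of BATF, IRF4 and Foxp3 gave 24 of the 34 samples of the series, and the 10 input samples were not used here. The 4 tables that the authors deposited hold a signal, the normalised score of each peak in each library. The submitters' processing notes name DiffBind 3.12.0, edgeR 3.38.4, MACS2 2.2.7.1, Bowtie2 2.4.1 and the build mm10, with no roles or filters. Dividing by 1 factor per library gave whole reads within 0.01 for 100% of the values. The factors lay within 0.884% (first BATF table), 5.14% (second), 2.14% (Foxp3) and 1.28% (IRF4) of edgeR's TMM. A change shared by most peaks would be scaled away.

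Tables were fitted separately with limma 3.58.1 (R 4.3.3) on log2 of value plus 1, letting the spread depend on the mean value, two-sided, Benjamini-Hochberg adjusted over all peaks of a table, and 0.05 as the threshold. All peaks were kept. The 8 Foxp3 libraries were fitted together. Columns of the R397W controls were matched to their group but not to single samples, since their numbers are not those of the titles. The second BATF table repeats the Treg and Tconv libraries of the first (402 common intervals, 1 read count different), which stayed out of the R397W fit. The fits were also run on simulated data, and the outcome is not given here. Alternatives were edgeR 4.0.16 on recovered reads (quasi-likelihood test, TMM), a pseudocount of 5, the 25th percentile as a filter, quantile normalisation, no trend, a replicate block, each library left out, 20000 bp as the distance, only the 4 libraries compared for Foxp3, a reciprocal overlap of 50% and, chosen after seeing the data, all peaks within 100000 bp whichever gene is nearest.

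Distance is from peak edge to gene body, with ties to the nearest gene end. Peak coordinates are those deposited, and it is not known if they start at 0 or 1. Given with their values are the strongest peak of each gene in each table and every peak past the threshold, other peaks appear with summary values, and up to 3 peaks of the homing list per comparison by smallest p. The 4 genes, the lists and the motifs were chosen with earlier results of these data known. The promoter sequence is from RefSeq (GRCm38.p6), whose promoter table matched 2 of the 4 genes. The results of 1 gene of the homing list and 1 marker gene and the homing list's counts for effector against central cells are not reported here.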

Additional observations from a re-analysis of the deposited data

Results flagged for a closer look

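In groups of 4 libraries, 1 library stood far from the others at 2 of 30 peak and group pairs, and chance gives about 1 in 20. At the S1pr1 IRF4 peak 43303 bp above the gene, Tconv replicate 3 held 9.02, where the other Tconv libraries held 32.7 to 36.6. At the Ccr9 IRF4 peak 12351 bp before the gene, Treg replicate 2 held 30.1, where the other Treg libraries held 14.5 to 17.1.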

How the results depend on the processing

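For single named peaks, 256 of the repeated tests kept their direction and their side of the threshold, 18 lost a call, 6 gained one and 13 turned sign. Counts of called peaks at the 4 genes moved as follows. For BATF in Treg against Tconv cells the 4 calls became 2 with the 25th percentile filter, 10 when every peak within 100000 bp was taken whichever gene was nearest, and 2 to 4 with 1 library left out. For IRF4 the 2 calls became 4 under quantile normalisation, 1 within 20000 bp, 7 with every peak within 100000 bp, and 2 to 4 with 1 library left out. For effector against central cells the 4 calls became 2 within 20000 bp, 9 with every peak within 100000 bp, and 1 to 2 with 1 library left out. For Batf-/- the 0 calls became 1 with every peak within 100000 bp and were 0 to 0 with 1 library left out. For R397W the 0 calls became 1 with edgeR and 2 with every peak within 100000 bp, and were 0 to 0 with 1 library left out. Fewer or more peaks were taken by the filter and the distances, and the other causes were not tested.

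Signs turned only at peaks that passed no main test. The log2 difference of the Ccr7 BATF peak at 99170738 was 0.019 with edgeR and -0.41 to 0.39 with 1 library left out. That of the Ccr9 BATF peak at 123754456 was -0.021 under quantile normalisation and -0.14 to 0.24 with 1 library left out, and that of the S1pr1 IRF4 peak at 115800865 was 0.0033 with edgeR and -0.21 to 0.23. With 1 library left out, the S1pr1 peak at 115793335 ranged from -0.14 to 0.79 and the Ccr9 peak at 123754437 from -0.34 to 0.031 for Batf-/-, and the Ccr7 peak at 99130830 from -0.13 to 0.31 and the Ccr9 peak at 123756730 from -0.0042 to 0.34 for R397W. A lone library left in a group was assumed to vary like the others.

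The labels do not say that a library number marks a shared animal or day, so the numbers were not taken as pairs. Same-numbered libraries deviated together only weakly (r = 0.0882 for BATF, 0.0346 to 0.132 for IRF4, 0.0761 for Batf-/- and 0.139 for effector and central cells). In groups of 2 libraries the deviations mirror each other, so this r cannot decide whether libraries were paired. With a replicate block the calls were 4 for BATF, 4 for IRF4 (1 higher, 3 lower), 0 for Batf-/- and 5 for effector against central cells. For IRF4 not every library correlated best with its own number. No paired analysis was possible for R397W because the control columns carry no number of their titles.

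Quantile normalisation put the median log2 difference of all peaks at -0.13 for BATF, -0.11 for IRF4 and 0.13 for R397W. Whole-table counts moved by over 1.5 times in at least 1 direction as follows, with all libraries kept. For BATF (2395 higher, 772 lower) they were 1443 and 328 with the 25th percentile filter and 2086 and 1291 under quantile normalisation. For R397W (61 and 802) they were 11 and 160 without a trend, 58 and 482 under quantile normalisation, 131 and 836 with edgeR and 93 and 930 with a pseudocount of 5. For Batf-/- (35 and 250) they were 17 and 167 with the filter, 9 and 165 under quantile normalisation and 12 and 208 with only the 4 libraries, and for effector against central cells (958 and 688) 1075 and 1062 under quantile normalisation. With 1 library left out, the counts higher and lower ranged from 1 to 182 and 124 to 610 for R397W (182 and 468 without control column 1, 17 and 124 without column 2, 1 and 459 without R397W replicate 1, 6 and 610 without replicate 2), from 19 to 109 and 89 to 462 for Batf-/- (109 and 462 without Batf-/- replicate 1, 27 and 108 without wild-type replicate 1, 19 and 89 without wild-type replicate 2) and from 577 to 756 and 418 to 453 for effector against central cells. Control and central libraries with the fewest reads (144319 and 164740) limit the precision of values that rest on few reads.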

Other observations

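Within 100000 bp of the 4 genes lie peaks that are nearer to another gene and were therefore not counted above, and several of them differed by more than the peaks of the 4 genes themselves. With the peaks of the 4 genes included, 10 of 48 BATF peaks were called in Treg against Tconv cells (19.7% of all peaks). For IRF4 it was 7 of 34 (24.2%), for effector against central cells 9 of 17 (25.7%) and for Batf-/- 1 of 17 (4.46%). Towards Smarce1, 45045 to 52220 bp above Ccr7, BATF was higher in Treg cells at 3 peaks. The first held 199 and 172 in Treg and 31.4 and 30.0 in Tconv libraries (limma adjusted p = 3.52e-06), the next 242 and 257 against 90.6 and 146 (0.00131) and the last 163 and 142 against 19.7 and 4.28 (2.84e-05). IRF4 was higher at the first and the last too, at 46.8 ± 14.7 against 13.1 ± 4.42 (SD, n = 4, limma adjusted p = 3.37e-04) and at 68.6 ± 22.4 against 20.6 ± 6.30 (2.62e-04). On the other side of Ccr7, towards Tns4 and 27860 bp away, BATF was lower in Treg cells, at 37.3 and 36.1 against 109 and 93.5 (limma adjusted p = 0.00147), and so was IRF4, at 15.9 ± 4.30 against 40.3 ± 3.25 (0.00187). At that peak BATF was higher in R397W than in control cells, at 66.7 and 43.0 against 18.5 and 13.8 (limma adjusted p = 0.0307, controls from 12 and 4 reads).

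Around Klf2 a peak on the Eps15l1 gene body, 22091 bp downstream of Klf2, held BATF at 88.1 and 59.9 in Treg and 23.2 and 15.7 in Tconv libraries (limma adjusted p = 0.00198). Foxp3 there was lower in Batf-/- cells, at 14.2 and 2.57 against 23.3 and 38.4 (0.0103, the lowest from 2 reads), and BATF was lower in R397W cells, at 15.4 and 20.8 against 47.8 and 55.3 (0.0466). Towards Ap1m1, 39486 bp before Klf2, BATF was lower in Treg than in Tconv cells, at 111 and 104 against 159 and 199 (limma adjusted p = 0.0177). IRF4 was lower in Treg cells on the Eps15l1 gene body, 38585 bp downstream of Klf2, at 16.6 ± 4.04 against 33.7 ± 7.06 (SD, n = 4, limma adjusted p = 0.0210). Foxp3 in effector cells was lower at 3 peaks around Klf2. Towards Ap1m1, 41441 bp before the gene, it held 12.7 and 16.1 against 70.6 and 67.5 in central cells (limma adjusted p = 5.93e-06). On the Eps15l1 gene body it held 18.2 ± 1.20 against 38.6 ± 0.0516 (0.00907) and 16.7 ± 1.53 against 59.6 ± 16.4 (4.60e-04, SD, n = 2). Around Ccr9 the neighbouring Foxp3 peaks went the other way: towards Lztfl1 they held 26.6 and 24.2 in effector and 7.99 and 2.97 in central libraries (0.0194), and on the Fyco1 gene body 49.4 and 60.0 against 25.3 and 23.0 (0.00839). IRF4 was higher in Treg than in Tconv cells towards Lztfl1, 26014 bp before Ccr9, at 18.0 ± 4.66 against 6.45 ± 4.27 (SD, n = 4, limma adjusted p = 0.0223).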
